A study of Homo sapiens with 12 samples.

Results

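Metallothioneins and the zinc response were followed through 8 genes, which were taken by gene name from the tables of SCC15 and SCC25 cells. They are the metallothionein genes MT1E, MT1F, MT1G, MT1M, MT1X and MT2A, with MTF1 and SLC30A1. The SCC25 table listed all 8 members among its 31055 genes. The SCC15 table listed 5 of the 8 among its 29657 genes, and MT1E, MT1G and MT1M were not listed there. SCC15 and SCC25 are established lines of human oral squamous carcinoma cells, labelled wild type. Each line was exposed for 24 h to DMSO, the solvent, or to ACGs (annonaceous acetogenins), for which the study's methods name squamocin at 10 µg/mL. RNA was sequenced from 3 libraries of each of the 4 groups, 12 in all. Each line is a single culture lineage, and the labels do not say whether replicates came from separate cultures, so p-values measure the spread between these libraries only.

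Metallothioneins are small, cysteine-rich proteins that bind zinc and copper and also cadmium, and so buffer free metal in the cell. Free zinc activates MTF1, the metal-responsive transcription factor, which binds metal response elements before the metallothionein genes and before SLC30A1, and raises their transcription. SLC30A1 encodes ZnT1, the transporter that carries zinc out across the plasma membrane. Glucocorticoids and oxidants are also known inducers of metallothionein genes.

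The sequences before MT2A, MT1X and SLC30A1 are shown because these members rose in at least 1 cell line and because the metal response element is the known link between them. Each holds the 250 bases before the RefSeq start on GRCh38.p14, on the strand of the gene. Capitals mark matches, on either strand, to the cores TGCGCNC and TGCACNC, in which N is any base. A match has G or A before its second C, so none counts under both cores.
MT2A: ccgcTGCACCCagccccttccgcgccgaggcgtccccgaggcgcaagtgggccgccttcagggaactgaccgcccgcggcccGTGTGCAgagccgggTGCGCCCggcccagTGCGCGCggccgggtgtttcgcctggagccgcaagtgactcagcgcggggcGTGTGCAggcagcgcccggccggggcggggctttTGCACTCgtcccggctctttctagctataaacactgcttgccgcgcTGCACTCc
MT1X: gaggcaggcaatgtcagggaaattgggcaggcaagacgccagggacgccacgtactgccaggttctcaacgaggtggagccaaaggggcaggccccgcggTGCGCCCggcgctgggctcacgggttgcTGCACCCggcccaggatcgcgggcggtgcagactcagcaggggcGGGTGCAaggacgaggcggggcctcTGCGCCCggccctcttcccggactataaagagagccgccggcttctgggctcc
SLC30A1: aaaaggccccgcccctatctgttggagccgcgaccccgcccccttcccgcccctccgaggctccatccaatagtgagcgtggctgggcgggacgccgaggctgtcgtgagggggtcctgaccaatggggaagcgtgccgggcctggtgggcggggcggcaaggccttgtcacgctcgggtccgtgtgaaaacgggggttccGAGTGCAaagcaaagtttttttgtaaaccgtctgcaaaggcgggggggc
The windows lie at chr16:56608334-56608583 on the plus strand, at chr16:56682220-56682469 on the plus strand and at chr1:211579162-211579411 on the minus strand. The RefSeq starts differ from the gene bounds given with each member below. By those bounds the MT2A window lies inside the gene. The MT1X window, and the MTF1 window named next, overlap the gene start, and the SLC30A1 window lies before it with a gap. MT2A held 7 matches, MT1X held 4 and SLC30A1 held 1, in that case on the opposite strand, 49 to 43 bases before the start. The window before MTF1 (chr1:37859593-37859842, minus strand) held 0 matches, which says only that these letters are not in it. Of 35116 promoters of the same length, 24.8% held at least 1 match, 0.37% at least 4 and 0.0313% at least 7. TGCGCNC alone was found in 16.8% of them and TGCACNC in 9.87%. A match describes the letters and does not show that MTF1 binds there. MT1E, MT1F, MT1G and MT1M had no entry in the promoter table.

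The recovered reads per library numbered 16665563 to 22748845. The values are normalized counts, meaning reads divided by the authors' size factor of the library, and they were set separately for each cell line. Squamocin replicate 3 of SCC15 stood apart, with a chi-square of 64.1 and 56.8 per degree of freedom against its 2 sister libraries, whereas all other pairs within a group lay between 1.67 and 9.95. The members' values and those of the lists in SCC15 are therefore also given without it. The labelled cell type was checked against 10 squamous epithelial markers. All 10 were listed in both tables, with summed levels of 115913 to 122206 normalized counts with DMSO and 219862 to 380543 with squamocin in SCC15, and of 30825 to 31137 and 56264 to 59119 in SCC25. The SCC15 sum was mostly KRT17, with a mean of 112298 normalized counts with DMSO. The other markers were uneven there, since KRT5 and DSG3 had means under 10, and TP63 and EPCAM had means with DMSO of 17.5 and 11.4, against 4512 and 2942 in SCC25. Within each line, squamocin and DMSO libraries were compared by limma, with adjustment over all genes with a mean of at least 10, which were 15902 genes in SCC15 and 16539 in SCC25, at an adjusted p threshold of 0.05. Of the 8 members, 5 were tested in SCC15 and 7 in SCC25, where MT1G missed the mean of 10.

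Squamocin-treated cells held more metallothionein RNA than DMSO-treated cells in both lines. In SCC15 all 3 metallothionein members that could be tested rose, with a median log2 fold change of 1.60. In SCC25 4 of the 5 tested rose, with a median of 1.42, and MT1M did not pass the test. The median over all tested genes was 0.012 in SCC15 and -0.015 in SCC25. Many other genes also moved, since 30.9% of all tested genes rose in SCC15 and 30.0% fell by the same limma test, against 38.3% and 38.5% in SCC25. In bulk RNA, a change in the make-up of the culture and a change of RNA per cell cannot be told apart.

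MT2A (ENSG00000125148; chr16:56608199-56609497, plus strand, GRCh38) is the most abundant metallothionein gene of many human tissues. In SCC15 its normalized counts were 16763, 16320 and 16729 with DMSO and 45822, 44021 and 81612 with squamocin. In SCC25 they were 49247, 53310 and 55248 with DMSO and 203165, 216394 and 206586 with squamocin. The groups did not overlap in either line, and replicate 3 was well above the other squamocin libraries of SCC15. Every squamocin library lay above every DMSO library for 35.7% of all tested genes in SCC15 and 39.4% in SCC25. The mean rose from 16604 ± 247 to 57152 ± 21203 (SD, n = 3) in SCC15, with 1.72 as the log2 fold change (standard error 0.24, limma adjusted p = 7.04e-04). In SCC25 it rose from 52602 ± 3062 to 208715 ± 6866 (SD, n = 3), with 1.99 as the log2 fold change (standard error 0.048, limma adjusted p = 2.65e-12). Without squamocin replicate 3 of SCC15, the log2 fold change there was 1.44 (limma adjusted p = 3.02e-17). Ranked by mean normalized count among all listed genes, MT2A moved from 63 to 23 in SCC15 and from 14 to 2 in SCC25.

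MT1X (ENSG00000187193; chr16:56682424-56684196, plus strand) encodes another of the broadly expressed metallothioneins. Its normalized counts in SCC15 were 833, 864 and 946 with DMSO and 2145, 2216 and 3972 with squamocin. In SCC25 they were 1041, 1078 and 950 with DMSO and 4510, 4876 and 4555 with squamocin. All squamocin libraries were above all DMSO libraries in both lines. The log2 fold change was 1.60 (standard error 0.23, limma adjusted p = 8.40e-04) in SCC15 and 2.18 (standard error 0.055, limma adjusted p = 4.39e-12) in SCC25. Without squamocin replicate 3 it was 1.31 in SCC15.

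MT1F (ENSG00000198417; chr16:56657694-56660698, plus strand) was expressed at a lower level. Its normalized counts in SCC15 were 107, 117 and 138 with DMSO and 243, 190 and 357 with squamocin. In SCC25 they were 151, 127 and 113 with DMSO and 343, 360 and 342 with squamocin. The groups were again separate in both lines, with the widest spread in the squamocin libraries of SCC15. MT1F rose by a log2 fold change of 1.08 (standard error 0.23, limma adjusted p = 0.00526) in SCC15 and 1.42 (standard error 0.11, limma adjusted p = 1.39e-07) in SCC25. The value in SCC15 was 0.84 without squamocin replicate 3 and 0.59 with equal library totals.

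MT1E (ENSG00000169715; chr16:56625475-56627112, plus strand) was listed in SCC25 alone. Its normalized counts were 15131, 15146 and 14545 with DMSO and 33917, 36112 and 33096 with squamocin. It rose 2.30-fold, a log2 fold change of 1.20 (standard error 0.041, limma adjusted p = 6.24e-11). MT1E was the gene with the second highest level of the family in SCC25, at rank 128 of all listed genes with DMSO and 48 with squamocin.

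MT1M (ENSG00000205364; chr16:56632233-56633986, plus strand), which lies 24.0 kb from the start of MT2A and next to MT1E, gave another pattern. Its normalized counts in SCC25 were 181, 197 and 150 with DMSO and 169, 203 and 205 with squamocin. The groups overlapped. The log2 fold change was 0.13 (95% confidence interval -0.14 to 0.41, limma adjusted p = 0.359), and with equal library totals it was -0.076. The upper end of the interval lies below the lower end of that of MT1E, which ran from 1.11 to 1.29. MT1G (ENSG00000125144; chr16:56666731-56668065, minus strand) was near the limit of detection, with 0, 4 and 3 reads with DMSO and 2, 0 and 0 reads with squamocin, and no fold is given.

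**Figure D1:**
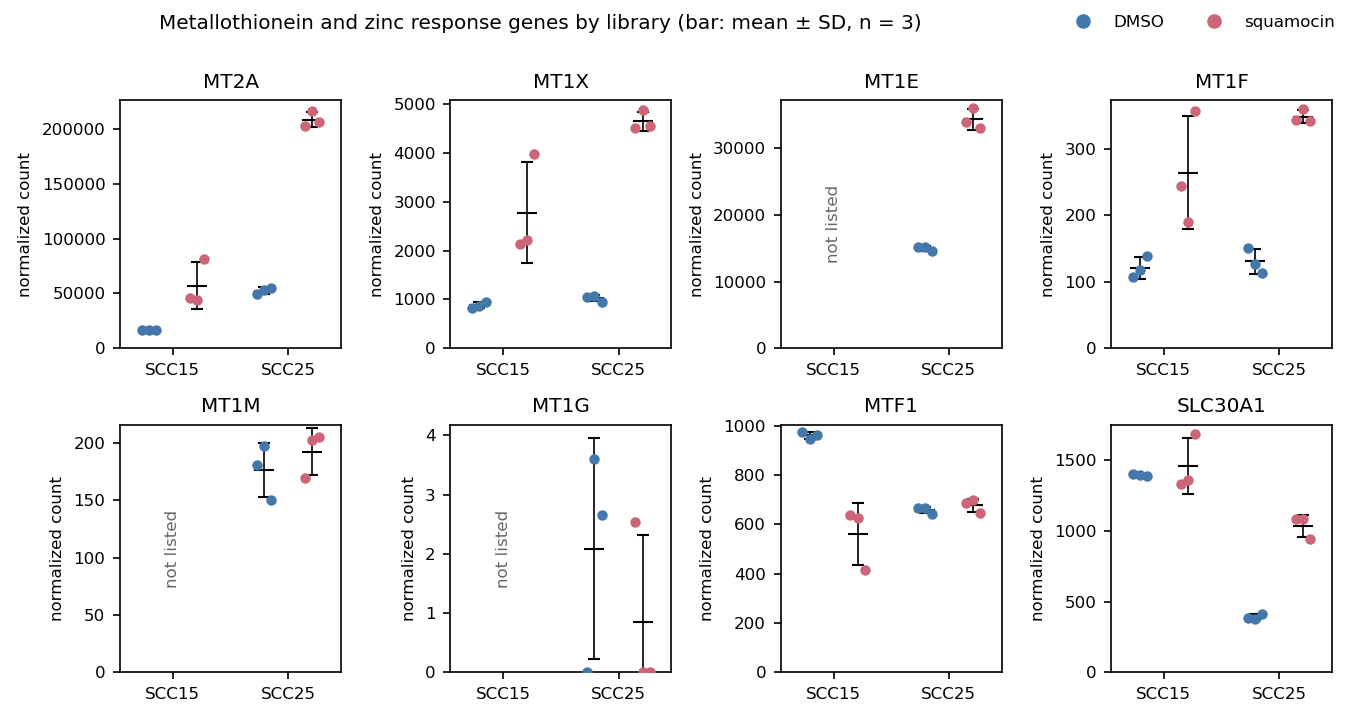
Normalized counts of the 8 members (linear vertical axis from 0, a scale of its own in each panel) for each library of SCC15 and SCC25, with DMSO in blue and squamocin in red; short bars are means and whiskers SDs over 3 libraries. MT2A, MT1X and MT1F are higher in every squamocin library than in every DMSO library of both lines, whereas SLC30A1 is higher in SCC25 and MTF1 lower in SCC15.

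MTF1 (ENSG00000188786; chr1:37809567-37859620, minus strand), the zinc sensor, did not rise in either line. In SCC15 its normalized counts were 975, 945 and 963 with DMSO and 639, 626 and 414 with squamocin, which did not overlap. Every squamocin library lay below every DMSO library for 34.9% of all tested genes in SCC15 and 39.6% in SCC25. The MTF1 counts in SCC25 were 665, 665 and 643 with DMSO and 685, 700 and 646 with squamocin, which overlapped. MTF1 fell in SCC15 by 0.81 on the log2 scale (standard error 0.17, limma adjusted p = 0.00458), and by 0.60 without squamocin replicate 3. In SCC25 the log2 fold change was 0.042 (95% confidence interval -0.089 to 0.17, limma adjusted p = 0.540), whereas with equal library totals it was -0.17 (limma adjusted p = 0.0200).

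SLC30A1 (ENSG00000170385; chr1:211571568-211578742, minus strand), the zinc exporter, moved in SCC25. Its normalized counts there were 385, 374 and 413 with DMSO and 1082, 1081 and 943 with squamocin. In SCC15 they were 1402, 1398 and 1391 with DMSO and 1334, 1356 and 1685 with squamocin. The SCC25 groups were separate, and in SCC15 squamocin replicates 1 and 2 lay below the DMSO libraries and replicate 3 above them. SLC30A1 rose in SCC25 by a log2 fold change of 1.40 (standard error 0.073, limma adjusted p = 2.43e-09). In SCC15 it was 0.054 (95% confidence interval -0.20 to 0.30, limma adjusted p = 0.683), and this sign turned to -0.054 without squamocin replicate 3, -0.012 with edgeR and -0.44 with equal library totals (limma adjusted p = 0.00152). With squamocin, SLC30A1 had 1458 ± 196 normalized counts in SCC15 and 1035 ± 80.3 in SCC25 (SD, n = 3), values that were scaled in separate tables.

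The difference between the responses of the cell lines was tested directly, as the log2 fold change in SCC25 minus that in SCC15, over 14454 genes tested in both lines. Among these, 26.0% had a larger value in SCC25 and 26.1% a smaller one, 52.2% in all. SLC30A1 differed by 1.35 (standard error 0.13, limma adjusted p = 4.32e-06) and MTF1 by 0.85 (standard error 0.19, limma adjusted p = 0.00191). Both differences had the same direction without squamocin replicate 3 of SCC15, at 1.46 and 0.64. The 3 metallothionein members tested in both lines did not pass the threshold, with differences of 0.59 for MT1X (95% confidence interval 0.044 to 1.13, limma adjusted p = 0.0659), 0.34 for MT1F (-0.25 to 0.93, limma adjusted p = 0.318) and 0.27 for MT2A (-0.30 to 0.84, limma adjusted p = 0.418). MT1X passed with TMM factors (0.62, limma adjusted p = 0.0412) and with the replicate number as a block (0.59, limma adjusted p = 0.0257). Without squamocin replicate 3 of SCC15, MT1X differed by 0.88 (limma adjusted p = 5.65e-08), MT1F by 0.58 (limma adjusted p = 0.0141) and MT2A by 0.55 (limma adjusted p = 8.23e-07), so that all 5 members tested had a larger value in SCC25 than in SCC15, as did 4825 of all 14454 genes, against 4699 with a smaller one. All 5 also passed with equal library totals, a scaling that moved the median difference of all genes to 0.27, with 5452 genes larger and 2396 smaller in SCC25. For MTF1 the larger value in SCC25 goes with a fall in SCC15.

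**Figure D2:**
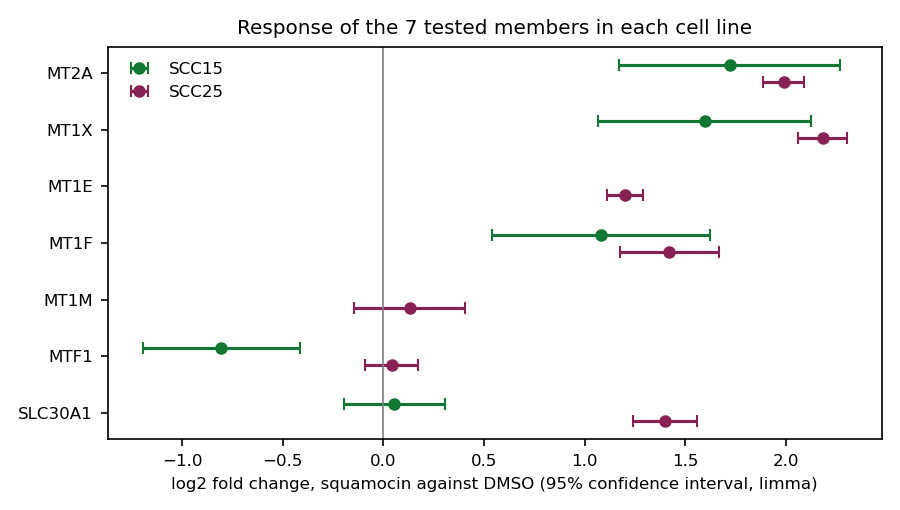
Log2 fold change of squamocin against DMSO (horizontal axis) for the 7 members tested, with SCC15 in green and SCC25 in purple; points are limma estimates and whiskers 95% confidence intervals. The intervals of the metallothioneins other than MT1M lie above 0, and the lines part at SLC30A1 (0.054 against 1.40) and MTF1 (-0.81 against 0.042).

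To compare members with each other, reads were scaled to the length of the annotated exons and the reads of the library (RPKM). RPKM uses no size factor, so between treatments it follows the scaling to equal library totals. That scaling put the median log2 fold change of all genes at -0.48 in SCC15 and -0.22 in SCC25. RPKM values therefore serve to compare members within a group, and a change with squamocin is given by the fold changes above. In SCC25 with DMSO the mean level was 3148 for MT2A, 777 for MT1E, 32.4 for MT1X and 18.8 for MT1M. It was 4.50 for MTF1, 3.85 for MT1F, 3.63 for SLC30A1 and 0.15 for MT1G. MT1F overlapped with its neighbours MTF1 and SLC30A1 in this order, and the others were separate in every library. With squamocin the means in SCC25 were 10811 for MT2A, 1547 for MT1E, 127 for MT1X, 17.8 for MT1M, 8.90 for MT1F, 8.31 for SLC30A1 and 4.01 for MTF1. MT1F, with 8.75, 9.14 and 8.83 in its libraries, lay just above SLC30A1, with 8.67, 8.63 and 7.65.

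In SCC15 with DMSO the mean RPKM was 1172 for MT2A, 32.9 for MT1X, 15.3 for SLC30A1, 7.76 for MTF1 and 4.20 for MT1F, with no overlap between neighbours. With squamocin it was 2796 for MT2A, 71.9 for MT1X, 11.2 for SLC30A1, 6.40 for MT1F and 3.26 for MTF1. MT1F thus changed places with MTF1, and neighbours again did not overlap. Without replicate 3 the squamocin means in SCC15 were 2381 for MT2A, 61.1 for MT1X, 11.1 for SLC30A1, 5.68 for MT1F and 3.83 for MTF1, in the same order. The exon lengths are sums over all annotated transcripts (1852 bases for MT1F and 914 for MT2A), so a gene with long alternative exons is given a lower level.

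Metallothionein genes were summed as listed, 7 in SCC15 and 13 in SCC25, and the SCC15 sum holds no MT1E. Whether the genes not listed there had reads cannot be read from the table. Shares of the reads, like RPKM, use no size factor. The listed genes together took 0.114% ± 0.0020 of the reads with DMSO and 0.270% ± 0.070 with squamocin in SCC15 (SD, n = 3). The 3 squamocin libraries gave 0.237%, 0.224% and 0.351%, with the highest in replicate 3. In SCC25 the share was 0.378% ± 0.016 with DMSO and 1.18% ± 0.035 with squamocin (SD, n = 3). Over the 6 metallothionein genes listed in both tables, the share was 0.114% and 0.270% in SCC15, or 0.230% with squamocin without replicate 3, and 0.294% and 1.01% in SCC25. MT2A made up 93.8% ± 0.38 of the metallothionein sum with DMSO and 94.5% ± 0.15 with squamocin in SCC15. In SCC25 it made up 76.1% ± 1.44 and 83.8% ± 0.30, while MT1E fell from 21.7% ± 1.26 to 13.8% ± 0.28 (SD, n = 3). The DMSO shares of MT1E, 22.9%, 21.6% and 20.4%, were all above the squamocin shares of 14.0%, 14.0% and 13.5%. An exact two-sided permutation test of 3 against 3 libraries cannot go below the p of 0.1 that such separate groups give.

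The metallothionein genes of chromosome 16 lie side by side, and the lines differed in which of them were listed. From MT3 to DPPA2P4, 13 genes were listed in SCC25 and 5 of them in SCC15, namely MT2A, AC026461.3, MT1DP, MT1F and MT1X. A run of neighbours among them, MT1L, MT1E, MT1M and MT1JP, was listed in SCC25 and not in SCC15. In SCC25, MT1E alone had 52045 reads over the 3 DMSO libraries. Neither table held a gene with a total under 2 reads, and no value is given for a gene that was not listed. MT1G, MT1H, MT3 and DPPA2P4, also not listed in SCC15, had means of at most 3 normalized counts in each group of SCC25.

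**Figure D3:**
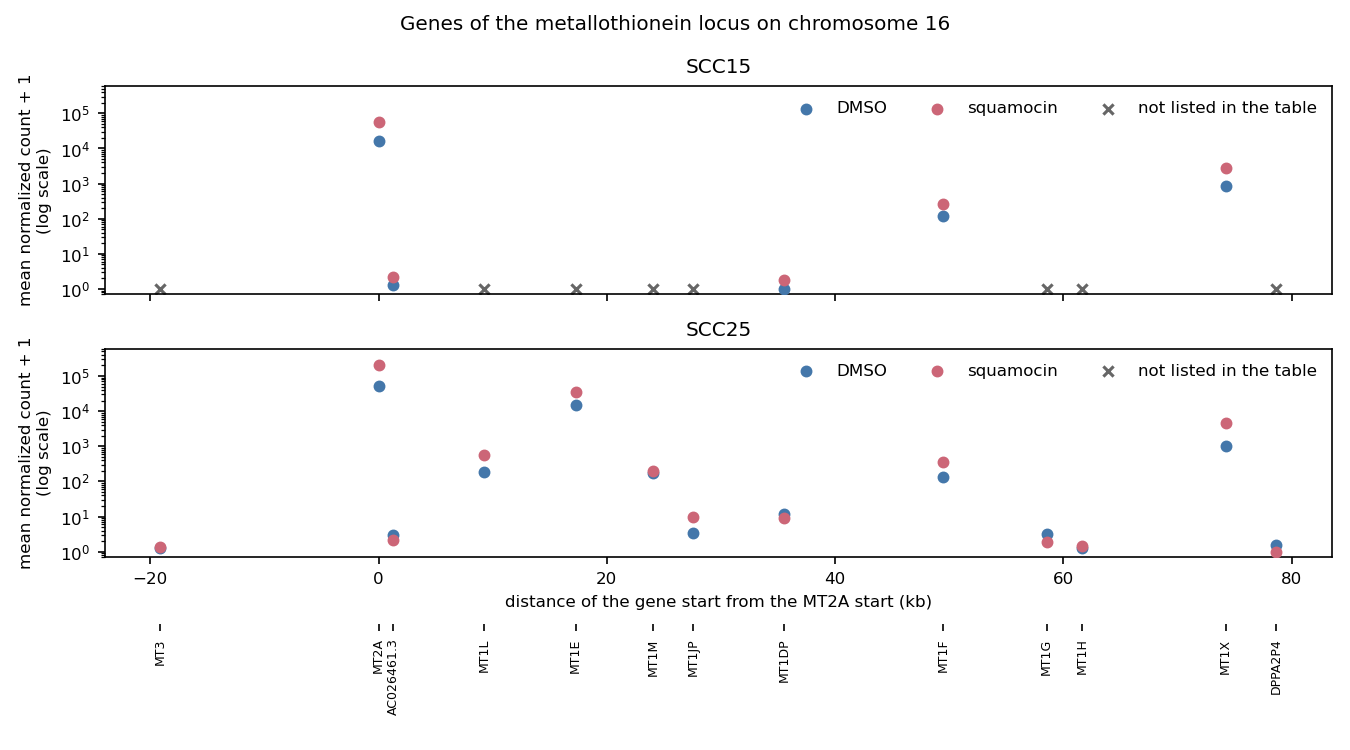
Mean normalized count plus 1 (log scale) of each gene of the chromosome 16 locus against the distance of its start from that of MT2A in kb, in SCC15 (top) and SCC25 (bottom); blue is DMSO, red squamocin, and a cross marks a gene that the table does not list. MT2A, MT1F and MT1X stand out in both lines, and MT1L, MT1E and MT1M in SCC25.

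Of 15 further metallothionein genes and pseudogenes, 1 was tested in SCC15 and 2 in SCC25, and these rose. MT1L (chr16:56617476-56618818) had 187, 182 and 203 normalized counts with DMSO and 627, 568 and 545 with squamocin in SCC25, a log2 fold change of 1.60 (limma adjusted p = 3.10e-09). MT2P1 (chr4:68376323-68376505), an intronless copy of MT2A, had 93.8, 93.3 and 90.8 with DMSO and 219, 247 and 417 with squamocin in SCC15, a log2 fold change of 1.60 (limma adjusted p = 9.29e-04), or 1.32 without replicate 3. In SCC25 it had 13.7, 18.9 and 23.9 with DMSO and 149, 103 and 88.8 with squamocin, a log2 fold change of 2.53 (limma adjusted p = 1.33e-06). MT2P1 shared 15.7% of its 50-base words with other genes, mostly with MT2A, so its reads and those of MT2A may be split and its values are uncertain. With DMSO it made up 0.52% of the metallothionein sum in SCC15 and 0.027% in SCC25.

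Because the family members are alike in sequence, the transcripts were compared with all other annotated genes. The share of 50-base words found in another gene was 4.48% for MT2A, 3.73% for MT1X, 1.24% for MT1F, 7.10% for MT1E, 18.2% for MT1M and 16.4% for MT1G. No 100-base word of these 6 genes was shared. Values of MT1M and MT1G are thus more open to reads of relatives than those of MT2A, MT1X and MT1F. How the authors' counting treated reads that match several genes is not given in the sources used here.

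Zinc transporters other than SLC30A1 were taken from fixed lists. ZnT proteins carry zinc out of the cytosol. Of 9 further ZnT genes, limma called 0 higher and 3 lower of 6 tested in SCC15, and 2 higher and 1 lower of 5 tested in SCC25. Among all tested genes, limma called 30.9% higher and 30.0% lower in SCC15, and 38.3% and 38.5% in SCC25. At an unadjusted p under 0.05, 1 ZnT gene was higher in SCC15 and 3 were lower. There edgeR called 0 higher and 4 lower, and DESeq2 called 0 higher and 3 lower. Over all 15902 genes of SCC15, edgeR called 4712 higher and 5168 lower, and DESeq2 called 5067 higher and 4897 lower. All genes at an unadjusted p were not counted. Without squamocin replicate 3 of SCC15 the counts of ZnT genes there were 1 higher and 4 lower. Over all 15902 genes, 6103 were then higher and 5920 lower, which also applies to the lists that follow. How many of all genes had the same call in both lines was not counted. Counts of genes called alike in both lines, here and in the lists that follow, therefore have no background and describe the list only. SLC30A4 was the only one of the ZnT genes with the same call in both lines. Its normalized counts fell from 264, 266 and 266 to 192, 137 and 138 in SCC15, and from 284, 329 and 314 to 177, 159 and 152 in SCC25 (log2 fold changes of -0.79, or -0.71 without that library, and -0.92).

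ZIP proteins carry zinc into the cytosol. Of 14 ZIP genes, 11 were tested in each line, and limma found 4 up and 5 down in SCC15, against 5 up and 3 down in SCC25. In both lines 3 were up and 3 down. The line difference passed the test for 5 of the 11, with 2 larger and 3 smaller in SCC25. Over all tested genes, 30.9% were up and 30.0% down in SCC15, against 38.3% and 38.5% in SCC25. The line difference passed for 52.2% of the 14454 genes tested in both. SLC39A4, the intestinal zinc importer, had log2 fold changes of 0.98 in SCC15 (limma adjusted p = 0.0147) and 1.37 in SCC25 (limma adjusted p = 1.70e-09). SLC39A7, which releases zinc from the endoplasmic reticulum and Golgi, had 1.19 and 0.38. SLC39A8, an importer of zinc and manganese, had -0.42 and -1.34. SLC39A1 fell from 76.5 ± 1.03 to 26.1 ± 10.6 normalized counts in SCC15 (SD, n = 3), and from 65.2 ± 1.97 (SD, n = 3) to 14.0, 7.28 and 17.8 in SCC25, log2 fold changes of -1.60 and -2.32. Leaving out single libraries changed some of these calls in SCC15, and leaving out a DMSO library also lowered the calls over all genes. When squamocin replicate 3 was left out, the counts were again 4 up and 5 down, and the log2 fold changes were 0.64 for SLC39A4, 1.08 for SLC39A7, -0.51 for SLC39A8 and -1.26 for SLC39A1. Without DMSO replicate 1, 2 were higher and 3 lower, and SLC39A4 and SLC39A8 missed the threshold (limma adjusted p = 0.0504 and 0.0673). Without DMSO replicates 2 or 3, 3 and 2 were lower, and SLC39A8 again missed it (limma adjusted p = 0.0567 and 0.0645). Over all 15902 genes, 4921 were higher and 4773 lower with all libraries, and 3953 and 3726 without DMSO replicate 1. Those counts were 3954 and 3700 without DMSO replicate 2, and 3902 and 3693 without DMSO replicate 3.

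Copper, which metallothioneins also bind, was followed through 11 genes of uptake, chaperones and export. Limma called 6 higher and 3 lower of 11 tested in SCC15, and 6 higher and 3 lower of 10 in SCC25, with 4 higher and 3 lower in both. The shares of all tested genes were 30.9% higher and 30.0% lower in SCC15, and 38.3% and 38.5% in SCC25. COX17, a chaperone that carries copper to cytochrome oxidase, had log2 fold changes of 1.30 in SCC15 and 1.47 in SCC25. ATOX1, a chaperone for the copper pumps, had 1.09 and 0.68. The copper pump gene ATP7A fell from 859, 935 and 947 to 350, 309 and 311 normalized counts in SCC15, and from 201, 223 and 227 to 82.6, 79.0 and 82.2 in SCC25 (log2 fold changes of -1.50 and -1.40). ATP7B, the related pump, had -0.69 and -0.49, and it missed the threshold without DMSO replicate 1 or 3 in SCC15 (limma adjusted p = 0.0764 and 0.0773) and without DMSO or squamocin replicate 2 in SCC25 (limma adjusted p = 0.0846 and 0.0547). Without squamocin replicate 3 of SCC15, 7 were higher and 3 lower there, and the values were 0.97 for COX17, 0.76 for ATOX1, -1.47 for ATP7A and -0.45 for ATP7B. Without DMSO replicate 1 or 3 in SCC15, 1 gene of the list was lower. Of all 15902 genes, 3726 and 3693 were then lower, against 4773 with all libraries.

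Genes of the oxidant and electrophile response, which NRF2 controls and metals are known to induce, were mostly higher. Of 10 tested in each line, 9 were higher and 0 lower in SCC15 by limma, by edgeR, by DESeq2 and at an unadjusted p. Over all 15902 genes of SCC15, edgeR called 4712 higher and 5168 lower, and DESeq2 called 5067 higher and 4897 lower. All genes at an unadjusted p were not counted. With equal library totals, 7 of the 10 were higher and 0 lower in SCC15, when 2357 of all 15902 genes were higher and 8033 lower. In SCC25, 8 were higher and 1 lower, and 8 were higher in both lines. By limma, 30.9% of all tested genes were higher and 30.0% lower in SCC15, against 38.3% and 38.5% in SCC25. The list's median log2 fold change was 1.01 in SCC15 and 0.99 in SCC25. HMOX1, which degrades haem, rose from 305, 271 and 289 to 776, 751 and 1102 normalized counts in SCC15, and from 96.7, 134 and 113 to 419, 410 and 405 in SCC25. Its log2 fold changes were 1.58 and 1.85. GCLM, a subunit of the enzyme that starts glutathione synthesis, had 1.11 and 1.96, and OSGIN1 had 1.48 and 1.40. SLC7A11, the cystine importer, rose 2.23-fold and 3.26-fold. When squamocin replicate 3 of SCC15 was left out, 9 were again higher and 0 lower there, with 1.40 for HMOX1, 1.07 for GCLM, 1.30 for OSGIN1 and 1.28 for SLC7A11. GCLM and SLC7A11 had larger values in SCC25, with differences of 0.85 (limma adjusted p = 2.61e-05) and 0.54 (limma adjusted p = 0.00586).

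Of 8 genes that the glucocorticoid receptor is known to induce, 7 were tested in each line. Of these, limma found 5 up and 2 down in SCC15, against 4 up and 3 down in SCC25, and 4 were up and 2 down in both. Shares over all tested genes were 30.9% up and 30.0% down in SCC15, and 38.3% and 38.5% in SCC25. DUSP1, a phosphatase of MAP kinases, had log2 fold changes of 3.18 and 4.50 in SCC15 and SCC25. PER1, of the circadian clock, had 3.41 and 3.64, and TSC22D3, which encodes GILZ, had 2.96 and 2.20. SGK1 went the other way, with -1.46 and -1.72, as did FKBP5, with -0.72 and -0.26. With squamocin replicate 3 of SCC15 left out, the counts there were again 5 up and 2 down. DUSP1, PER1, TSC22D3 and SGK1 then had 3.12, 3.59, 2.81 and -1.41 in SCC15.

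Markers of other cell types had low summed levels in both treatments. In SCC15, the 8 fibroblast markers summed to 723 to 795 normalized counts with DMSO and 487 to 491 with squamocin, and in SCC25 to 777 to 816 and 1075 to 1229. The 8 leukocyte markers, of which 6 were listed in SCC15 and 7 in SCC25, summed to 502 to 545 and 325 to 509 in SCC15, and to 405 to 493 and 85.2 to 111 in SCC25. PTPRC, the pan-leukocyte marker, was not listed in SCC25 and had a mean under 10 in SCC15. Of the 3 leukocyte markers tested in SCC25, CD14 fell by a log2 fold change of -5.98 (limma adjusted p = 4.55e-10). CD3E and ITGAM did not pass the threshold there. CD14 and CD3E, tested in SCC15, did not pass it. The 5 endothelial markers, of which 3 were listed in SCC15 and 5 in SCC25, summed to 164 to 181 and 66.1 to 77.5 in SCC15, and to 235 to 296 and 19.8 to 37.7 in SCC25. The 3 endothelial markers tested in SCC25 fell, with log2 fold changes of -4.79 for PECAM1, -3.59 for CDH5 and -1.20 for VWF. PECAM1, the only one tested in SCC15, had -1.19 there. MT2A alone exceeded each of the summed marker levels of this paragraph more than 10-fold in every library. The part of these genes in the metallothionein values was not tested.

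The pattern of the metallothioneins over the 12 libraries was taken as the mean log2 value of MT2A, MT1X and MT1F, centred on the DMSO mean of each line. The members differed in how close they came to it. SLC30A1 had a Pearson correlation of 0.73 with this pattern and MTF1 of -0.43, or 0.82 and -0.19 over the 11 libraries without squamocin replicate 3 of SCC15. Outside the lists, the closest genes were ISCU, a scaffold for iron-sulfur clusters (0.997), BTG3 (0.997), GTF3A, the factor TFIIIA of 5S RNA transcription (0.997), PSMC6, a proteasome ATPase (0.996), and OSER1 (0.995). Over the 11 libraries their correlations were 0.998, 0.997, 0.997, 0.995 and 0.995. Their log2 fold changes ran from 0.98 to 1.14 in SCC15 and from 1.17 to 1.43 in SCC25, and from 0.80 to 0.98 in SCC15 without that library. These values describe 12 libraries that share treatment, size factors and the library that stood apart, and they carry no test.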

How the data were processed

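RNA of SCC15 and SCC25 cells was sequenced in 12 libraries, 3 per treatment and line. The authors aligned reads to GRCh38 (HISAT2 2.0.5) and counted them per gene (featureCounts 1.5.0-p3, both per the submitters' processing notes). The deposited signal is the read count divided by 1 size factor per library, set by the authors within each line; the SCC25 columns are named fpkm but are not per length. The deposited group means, fold changes and p-values of the authors' comparison were not used. The members and lists were chosen with earlier results of these data known.

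Size factors were recovered from the values, and 100% of values came out as whole reads within a tolerance of 0.05. A mean of 10 normalized counts was the minimum for a gene, and tests were made with limma 3.58.1 (R 4.3.3; eBayes with a trend) on log2 of the value plus 1, two-sided, with the Benjamini-Hochberg method, so fold changes of low genes are understated. The line difference was a contrast of the 4 group means. Named beside the 8 members were metallothionein genes that were tested, up to 4 genes per list with the largest mean change among those called alike in both lines, and the 5 genes closest to the metallothionein mean. AC026461.3, MT1DP, MT1JP, MT1H, MT3, DPPA2P4, KRT5, DSG3, KRT17, TP63, EPCAM and PTPRC were named after their values were seen. The same holds for CD14, CD3E, ITGAM, PECAM1, CDH5, VWF and FKBP5. RPKM used exon lengths of GENCODE 44. Upstream sequences are RefSeq's; 4 of 8 members matched.

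Settings varied were the pseudocount (0.1 or 10), the minimum (none, or 10 in every library), the scaling (TMM factors or equal library totals) and the tool (DESeq2 1.42.0 or edgeR 4.0.16 with recovered reads), with a replicate block, limma without a trend and each library left out as well. For lists, other named genes, levels, correlations and read shares these, and the sum over shared genes, were chosen after seeing the data. edgeR called 4712 genes up and 5168 down in SCC15, and 6298 up and 6506 down in SCC25. The fits were also run on simulated counts with few changed genes, a fixed dispersion and no library that stood apart. These data differ in each of those points, so the simulation cannot show how the fits behave on them.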

Additional observations from a re-analysis of the deposited data

Results flagged for a closer look

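The response of SLC30A1 to squamocin differed between the cell lines, with a log2 fold change 1.35 higher in SCC25 than in SCC15 (limma contrast, adjusted p = 4.32e-06); it was higher in all 3 squamocin libraries than in all DMSO libraries in SCC25, and 1 of 3 was above them in SCC15. The response of MTF1 differed by 0.85 in the same direction (limma contrast, adjusted p = 0.00191), and all 3 squamocin libraries of SCC15 were below its DMSO libraries. Over the alternatives without a left-out library the differences ran from 1.33 to 1.64 for SLC30A1 and from 0.82 to 1.14 for MTF1, and over single libraries left out from 1.29 to 1.46 and from 0.64 to 0.96.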

How the results depend on the processing

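The 17 member results gave 302 values under the alternatives, of which 289 kept their direction and their side of the threshold. Another 8 kept their direction and came to pass it, and 5 changed sign. Among these 5, SLC30A1 in SCC15 and MTF1 in SCC25 also came to pass it with equal library totals (limma adjusted p = 0.00152 and 0.0200). Scaling libraries to equal totals moved the median of all genes to -0.48 in SCC15, -0.22 in SCC25 and 0.27 for the line difference, and changed the most. Of all genes tested with this scaling, 2357 of 15902 were higher and 8033 lower in SCC15, against 5032 and 7839 of 16539 in SCC25. The member and list counts below are to be read beside these. Under it, 2 members were lower in SCC15, 1 was lower in SCC25 and 5 differed between lines; SLC30A1 in SCC15 was -0.44, MT1M in SCC25 -0.076 and MTF1 in SCC25 -0.17, whereas MT2A was 1.22 and 1.78, MT1X 1.10 and 1.98, and MT1F 0.59 and 1.21 in SCC15 and SCC25. SLC30A1 in SCC15 was also negative with edgeR (-0.012) and without squamocin replicate 3 (-0.054), and ran from -0.054 to 0.11 with each library left out. With each library left out, the members higher numbered 3 to 3 in SCC15 and 5 to 5 in SCC25, those lower 1 to 1 and 0 to 0, and those that differed between lines 2 to 5, the last without squamocin replicate 3 of SCC15. MT1X also differed between lines with TMM factors (0.62) and with the replicate block (0.59), so that 3 members differed under the block. The block was fitted because the labels number the replicates alike. However, same-numbered libraries correlated between -0.051 and 0.0078, and no squamocin library correlated best with the DMSO library of its own number. The block changed no other member's call. Genes called with it numbered 4665 higher and 4451 lower in SCC15 and 6294 and 6317 in SCC25. Of the list counts, 369 stayed within 1.5 times and 15 moved, and of the other named genes' values 742 kept their call and 9 lost it, SLC39A4 in SCC15 with equal totals (0.48) among them. With equal totals the lists read 5 lower for ZnT, 2 higher and 7 lower for ZIP, and 3 higher for copper in SCC15, and 1 higher and 3 lower for ZnT and 5 lower for ZIP in SCC25. The cause of these changes was not tested. With 3 libraries a group, and at a few reads for MT1G, MT1H and MT3, no change of those genes was detectable.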

Other observations

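MT2P1 differed between the lines by a log2 fold change of 0.93 (95% confidence interval 0.12 to 1.73, limma adjusted p = 0.0515). SLC30A6, a zinc transporter of the secretory pathway, fell from 622, 629 and 612 to 314, 279 and 314 normalized counts in SCC15, and had 662, 673 and 684 with DMSO and 714, 731 and 595 with squamocin in SCC25, a line difference of 1.05 (limma adjusted p = 2.03e-05). SLC39A10, a zinc importer, had opposite calls, with log2 fold changes of -0.69 in SCC15 and 0.71 in SCC25 and a line difference of 1.40 (limma adjusted p = 1.22e-04). Other ZIP genes had line differences the other way, at -0.81 for SLC39A7 (limma adjusted p = 1.34e-04), -0.92 for SLC39A8 (limma adjusted p = 3.28e-05) and -0.58 for SLC39A13 (limma adjusted p = 2.80e-04), while SLC39A14 had 0.67 (limma adjusted p = 6.13e-05). These genes were chosen after their values were seen.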
